A study of Bos taurus with 48 samples.

Results

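Whole blood of 8 Jersey (J) and 8 Holstein-Friesian (H-F) bull calves was compared at d 8, which is 8 days after the last milk replacer was fed. Members were chosen by the label of breed and day, which gave 16 of the 48 libraries of the series, 1 library for each calf. The same calves were also bled at d -14, on the day before their milk replacer began to be reduced, and at d 1, and those libraries are used here only to place the d 8 difference beside the earlier ones. All 16 calves were clinically healthy, were vaccinated on arrival against respiratory viruses, Mannheimia and Salmonella, and were housed indoors in groups. They were fed milk replacer and concentrate by automatic feeders and were weaned in the same gradual way. The H-F calves came from 1 farm and the J calves from 2 others, the J calves were older and lighter, and the concentrate offered before weaning was capped in H-F but not in J, although no H-F calf ate up to its cap. Some calves of a breed shared a sire. The paper reports greater passive immunity from the dam in J, measured in serum on arrival. Breed therefore cannot be told apart from farm of origin, age, body weight or passive immunity in any value given here.

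Blood RNA is a mixture. Lymphocytes, monocytes, neutrophils, eosinophils and their precursors contribute, as do platelets and young red cells, which have no nucleus but carry RNA. Leukocytes signal through secreted cytokines and chemokines that bind receptors on other cells: chemokines direct migration, interleukins and interferons set activation, and growth factors act through receptor kinases. Neutrophils and monocytes take up microbes through complement, lectin and scavenger receptors, natural killer (NK) and cytotoxic T cells kill through granzymes, and B cells present antigen on major histocompatibility complex (MHC) class II. In bulk blood, fewer cells of a type and less RNA per cell cannot be told apart.

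Library totals at d 8 ran from 28398386 to 37763851 counts in H-F and from 30410945 to 35725456 in J. Synthetic spike-in RNA took 0.174 to 0.322% of the counts in H-F (median 0.231%) and 0.183 to 0.319% in J (median 0.217%), and the 10 highest genes took 4.95 to 5.63% and 4.50 to 5.36%. None of the 3 values differed between the breeds beyond the spread of the calves by an exact two-sided permutation test over 12870 splits, the smallest p being 0.201 for the 10 highest genes (adjusted p = 0.604 over 3 tests) and that for the spike-in share 0.592 (mean difference of -0.0139 percentage points, J minus H-F). On a multidimensional scaling plot the first dimension placed all H-F calves between -0.779 and -0.228 and all J calves between 0.136 and 0.779.

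Of the 16 libraries, 2 stood apart from their breed. H-F calf 25 was set apart from the other 7 H-F calves, by a gap of more than 0.526 of the breed's range, in 16.2% of the 12325 genes tested, and J calf 85 from the other J calves in 8.98%. The other 14 calves were set apart in 0.130 to 0.698% of genes. H-F calf 25 had not been set apart before weaning (0.341% of genes at d -14) or at d 1 (0.365%), whereas J calf 85 had 0.389% at d -14 and 5.68% at d 1. In H-F calf 25, 554 genes lay more than 2-fold below the mean of the other H-F calves and 71 more than 2-fold above it. In J calf 85 the balance was the other way, with 135 genes more than 2-fold below and 402 above. Counts of DEG are therefore given with all calves, without J calf 85 and without both.

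**Figure D1:**
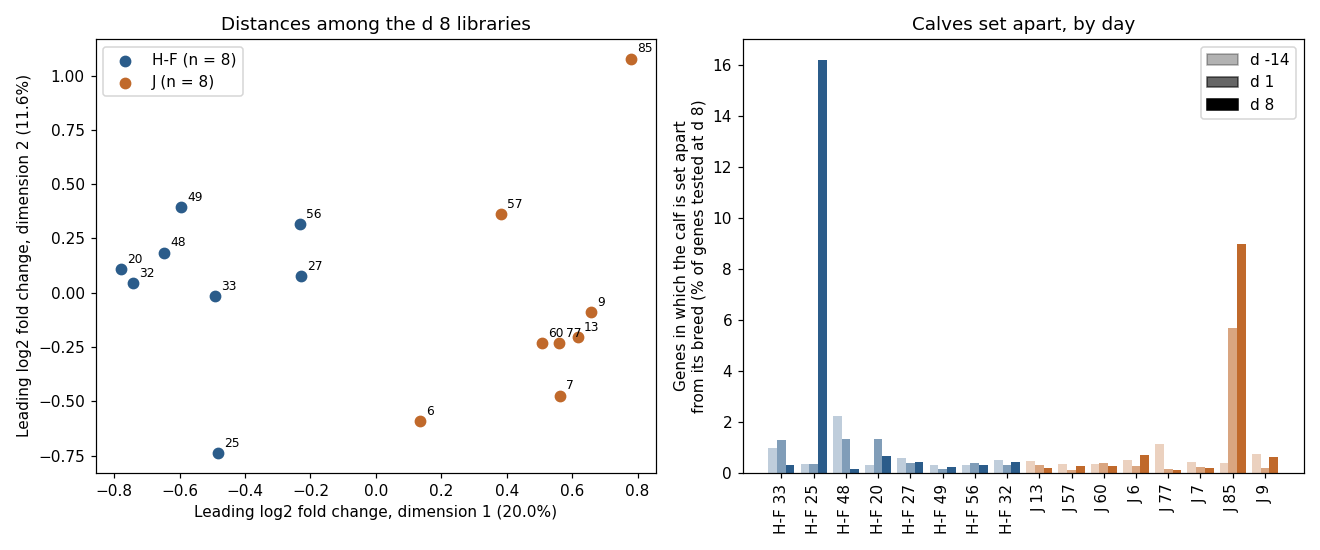
Left, leading log2 fold change distances among the 16 d 8 libraries, each point a calf labelled by its number (H-F blue, J orange). Right, the share of the genes tested in which each calf was set apart from its breed, with 1 bar for each of the 3 days (light to dark bars). H-F calf 25 reaches 16.2% on d 8 alone and J calf 85 5.68% on d 1 and 8.98% on d 8.

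Differentially expressed genes (DEG) were those with an adjusted p under 0.1 by edgeR's quasi-likelihood test and a fold change of at least 1.5. Of 12325 genes tested, 407 were DEG (3.3%), of which 182 (1.48%) were transcriptionally higher in J than in H-F and 225 (1.83%) were lower. Without J calf 85 there were 285 DEG (2.32%), 108 increased and 177 decreased, of which 266 were among the 407. Without both J calf 85 and H-F calf 25 there were 335 (2.74%), 207 of them decreased. Leaving out H-F calf 25 alone left 403. Leaving out J calf 9 moved the number of increases by more than 1.5 times, to 117, although that library did not stand apart. More than 2-fold differences were found in 112 DEG, 62 of them lower in J, and 13 exceeded 4-fold. Without J calf 85 there were 86 of more than 2-fold, and without both calves 96. In 81 genes (0.657%) the CPM (read counts scaled to library size) of the breeds did not overlap at all, 48 (0.389%) with every J calf below every H-F calf and 33 (0.268%) with every J calf above. With fewer calves left to overlap, 92 genes (0.746%) did not overlap without J calf 85 and 138 (1.12%) without both. Of the 407 DEG, 36 were of this kind, and in the other 371 the ranges of the breeds overlapped.

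**Figure D2:**
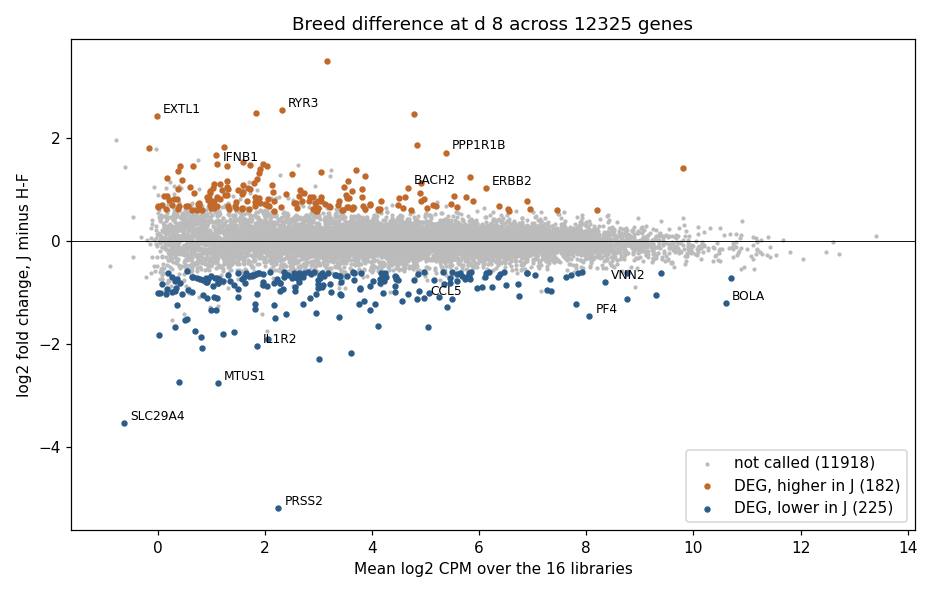
Log2 fold change of J over H-F at d 8 against the mean log2 CPM for each of 12325 genes. DEG higher in J are orange (182), DEG lower in J are blue (225) and all other genes are grey; named genes are among those described in the text.

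The largest decrease with a symbol was in PRSS2, which codes for the digestive protease trypsin 2. It was at 3.80, 31.5, 63.0, 59.6, 3.93, 82.8, 66.4 and 3.19 CPM in the 8 H-F calves and at 0.612 to 1.63 CPM in J. Every J calf was below every H-F calf, but the H-F calves themselves spread widely, 3 of them lying under 4 CPM and the other 5 over 30 CPM (log2 fold change -5.18, SE 0.70, adjusted p = 0.00212). SLC29A4, a monoamine transporter, was at 0.0911 to 5.41 CPM (median 3.49) in H-F and 0 to 1.96 CPM (median 0.0849) in J (log2 fold change -3.53, SE 0.79, adjusted p = 0.0206). H-F calf 33, at 0.0911 CPM, was as low as most J calves, and J calf 57, at 1.96 CPM, was the only J calf above 0.1 CPM. MTUS1, which codes for a microtubule-associated protein, was at 1.0 to 13.4 CPM (median 5.62) in H-F and 0.751 to 1.27 CPM (median 0.937) in J (log2 -2.76, adjusted p = 0.00666). PTX3, a soluble pattern recognition molecule that binds microbes and complement, was at 1.08 to 13.1 CPM (median 1.8) in H-F and 0.278 to 2.24 CPM (median 0.499) in J (log2 -2.74, adjusted p = 0.025). Its difference leaned on H-F calves 20 and 25, at 13.1 and 12.6 CPM, and without H-F calf 25 and J calf 85 it was -2.23, adjusted p = 0.0577. BRN, a ribonuclease, CDHR5, a cadherin-related protein, CLEC1A, a C-type lectin receptor, and KRT72, a keratin, fell by 2.29, 2.08, 1.81 and 1.75 on the log2 scale (adjusted p from 0.00276 to 0.0373). Of these only KRT72 separated the breeds completely, at 0.417 to 1.4 CPM in J, with a median of 0.889, against 1.72 to 4.14 CPM and a median of 3.07 in H-F.

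Other genes had smaller but tighter decreases. DHRS7, a short-chain dehydrogenase, was at 25.5 to 48.2 CPM (median 37.1) in H-F and 15.4 to 21.8 CPM (median 17.3) in J (log2 fold change -1.02, SE 0.12, adjusted p = 0.000809), and the groups did not overlap. COX7C, a subunit of the terminal oxidase of the respiratory chain, was at 5.16 to 9.96 CPM in J, with a median of 7.41, against 10.8 to 19.3 CPM and a median of 15.3 in H-F (log2 -1.05, adjusted p = 0.00212). UROS, an enzyme of haem synthesis, was at 9.74 to 15.8 CPM in J, with a median of 11, against 16.7 to 26.2 CPM and a median of 21.8 in H-F (log2 -0.88, adjusted p = 0.00212). All 3 kept their call when any 1 calf was left out.

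Among the increases, RYR3, a calcium release channel, was at 0.619 to 10.6 CPM (median 1.32) in H-F and 4.11 to 29.3 CPM (median 15.9) in J (log2 fold change 2.56, SE 0.54, adjusted p = 0.0171). Only H-F calf 25, at 10.6 CPM, lay above 3.37 CPM among the H-F calves. FAM84A was at 0.508 to 6.99 CPM (median 1.3) in H-F and 0.522 to 38.3 CPM (median 11.4) in J (log2 2.50, adjusted p = 0.0408). EXTL1, a glycosyltransferase of heparan sulphate synthesis, was at 0.181 to 1.12 CPM (median 0.385) in H-F and 0.177 to 4.41 CPM (median 2.69) in J (log2 2.43, adjusted p = 0.0124). The other 7 J calves were above every H-F calf but J calf 85 was below them all, and the difference without that calf was 2.61, adjusted p = 0.00368. J calf 85 was also the lowest J calf for ADGRA3, an adhesion G protein-coupled receptor (log2 1.84, adjusted p = 0.0184), at 0.737 CPM against a J median of 4.78. PPP1R1B, an inhibitor of protein phosphatase 1, was at 41.1 to 125 CPM in J, with a median of 94.5, against 7.77 to 56.6 CPM and a median of 17.5 in H-F (log2 1.73, adjusted p = 0.0222). MEI1 and the junctional adhesion molecule JAM2 were increased by 1.68 and 1.81 on the log2 scale (adjusted p = 0.024 and 0.0461). CDH20, a cadherin, was at 1.34 to 3.7 CPM (median 2.33) in H-F and 4.08 to 10.1 CPM (median 6.31) in J (log2 1.5, adjusted p = 0.00276), and here all J calves were above all H-F calves. The same complete separation was seen for STEAP2, a metal reductase (log2 0.79, adjusted p = 0.00702). KCTD11 and RAPGEF5, the latter an activator of the small GTPase Rap1, were increased by 1.28 and 1.46 on the log2 scale, with 7 and 6 of the 8 J calves above the highest H-F calf (adjusted p = 0.00468 and 0.00666).

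**Figure D3:**
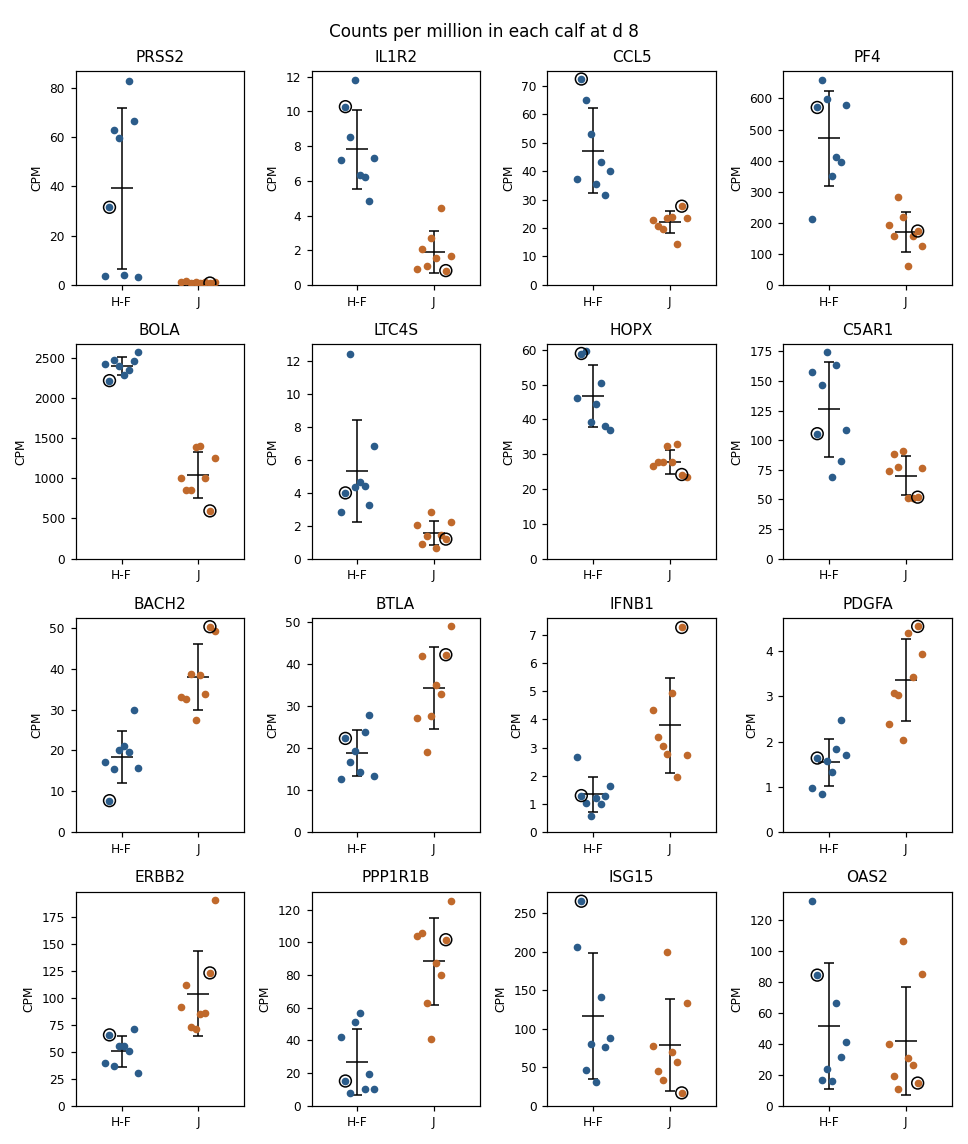
CPM of 16 genes in each calf at d 8, H-F in blue and J in orange, with the mean and SD of each breed (n = 8) in black and H-F calf 25 and J calf 85 circled. IL1R2, CCL5, BOLA, LTC4S (only just), HOPX and PRSS2 show no overlap between breeds, though 3 H-F calves lie close to J for PRSS2. ISG15 and OAS2, which were not DEG, overlap over nearly their whole range.

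Groups of genes of known function are described next. Symbols could be paired with identifiers only for genes that the study itself had called on at least 1 of its days, so the counts within a list are not independent evidence of its direction, and the many list members without an identifier were not looked at. Of the 615 genes tested that have a symbol, 51.9% were DEG (22.6% increased and 29.3% decreased), against 3.3% of all genes, and their median log2 difference was -0.37, against 0.00066 over all 12325. The lists can be read only beside the first of these, and shares of DEG near 51.9% do not set a list apart. Small counts also moved with single calves, which are named where the count changed by more than 1.5 times.

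Of 9 chemokine and chemokine receptor genes tested, 5 were DEG and all 5 were decreased in J. There were 3 without J calf 85 and without both calves, and the same number on leaving out any of H-F calves 20, 32 and 48 or of J calves 57 and 77. CCL5, which attracts T cells and monocytes, was at 31.7 to 72.4 CPM (median 41.6) in H-F and 14.3 to 27.7 CPM (median 23.1) in J (log2 fold change -1.1, SE 0.17, adjusted p = 0.00378). Every J calf was below every H-F calf, J calf 85 being the highest J calf. CCL3, an inflammatory chemokine, was measured at ENSBTAG00000025250 at 3.56 to 8.84 CPM (median 4.23) in H-F and 1.98 to 3.56 CPM (median 2.37) in J (log2 fold change -1.02, SE 0.22, adjusted p = 0.0171). The breeds did not overlap here either, but only just, with H-F calf 56 at 3.5644 CPM and J calf 9 at 3.562 CPM. The paper lists another gene annotated CCL3 as decreased at d 8, which is not among the 9 genes here. PF4, the chemokine that platelets release from their granules, was the most abundant of them at 213 to 659 CPM (median 491) in H-F and 60.8 to 282 CPM (median 166) in J (log2 fold change -1.46, SE 0.26, adjusted p = 0.00741), and 6 of the 8 J calves were below the lowest H-F calf. Calls for the other members were weaker: CXCL5/CXCL6 (log2 -0.82, adjusted p = 0.0772) and CXCR2, the neutrophil receptor for CXC chemokines (log2 -0.69, adjusted p = 0.0912), lost theirs in 10 and 13 of 25 alternative settings. CXCR5, a receptor that guides B cells into follicles, had a log2 difference of 0.50 in the other direction, which missed the fold threshold. PPBP, CXCL10 and CXCL16 had differences of -0.70, -0.47 and -0.43 and were not DEG.

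The interleukin group held 8 tested genes, of which 2 receptor genes were DEG, both lower in J, with and without J calf 85. Without both calves the same number were lower and 1 was higher, IL24 (0.60, adjusted p = 0.0533). IL1R2, the decoy receptor that takes up interleukin 1 without signalling, was at 4.82 to 11.8 CPM (median 7.26) in H-F and 0.826 to 4.42 CPM (median 1.6) in J (log2 fold change -2.03, SE 0.30, adjusted p = 0.00321). All J calves were below all H-F calves, and the 4.09-fold difference was the largest among the cytokine, growth factor and receptor genes listed. IL18RAP, the accessory chain of the interleukin 18 receptor, was at 5.79 to 19 CPM (median 12.4) in H-F and 2.67 to 7.97 CPM (median 6.08) in J (log2 fold change -1.03, SE 0.24, adjusted p = 0.0253). IL1B itself, the ligand that IL1R2 binds, was at 47.7 to 204 CPM (median 154) in H-F and 60.7 to 118 CPM (median 90.4) in J, and its log2 difference of -0.62 had an adjusted p of 0.11, so it was not called here. The remaining 5 interleukin and receptor genes had differences of -0.45 to 0.50 and were not DEG.

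Of 7 growth factor and receptor kinase genes tested, 4 were increased and 1 was decreased in J. Without J calf 85 the counts were again 4 and 1. Without both calves 3 were increased and 3 decreased, and 3 in all were DEG on leaving out any of H-F calves 32 and 33 or J calf 13. PDGFA, a mitogen for mesenchymal cells, was at 0.836 to 2.48 CPM (median 1.61) in H-F and 2.03 to 4.54 CPM (median 3.25) in J (log2 fold change 1.11, SE 0.22, adjusted p = 0.0124). PDGFRA, the receptor that binds it, went the other way, at 1.73 to 8.07 CPM (median 2.88) in H-F and 0.241 to 4.42 CPM (median 1.08) in J (log2 fold change -1.34, SE 0.43, adjusted p = 0.0732), and lost its call in 8 of the 25 settings. ERBB2, a receptor tyrosine kinase of the epidermal growth factor receptor family, was at 71.6 to 191 CPM in J, with a median of 89, against 30.5 to 71.7 CPM and a median of 52.9 in H-F (log2 1.04, adjusted p = 0.0133), with 7 of 8 J calves above the highest H-F calf. BMP4, a ligand of the transforming growth factor family, was at 2.07 to 3.55 CPM (median 2.79) in H-F and 3.0 to 6.91 CPM (median 5.15) in J (log2 0.77, adjusted p = 0.0269). MET, the hepatocyte growth factor receptor, was just past the fold threshold (log2 0.60, adjusted p = 0.0595) and J calf 57 was set apart below the other J calves at 6.76 CPM. FLT3 and KIT, receptors of blood progenitors, had differences of -0.57 and -0.52 and fell short of the fold threshold. FLT3 passed it when J calf 85 was left out (-0.59, adjusted p = 0.0297), and without both calves FLT3 (-0.60, adjusted p = 0.0273) and KIT (-0.62, adjusted p = 0.041) were both called lower, while MET was no longer called (0.57, adjusted p = 0.0931).

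In the tumour necrosis factor superfamily 2 of 4 tested genes were DEG, 1 in each direction, and again without both calves. There was 1 without J calf 85, and on leaving out any of H-F calves 20, 32 and 48 or of J calves 9 and 13, and 0 on leaving out H-F calf 33. TNFSF12, a ligand also known as TWEAK, was at 10.2 to 16.7 CPM (median 12.3) in H-F and 5.66 to 12 CPM (median 7.62) in J (log2 -0.65, adjusted p = 0.017). TNFRSF13C, the receptor through which B cells receive the survival signal BAFF, was at 2.87 to 6.99 CPM (median 4.23) in H-F and 5.16 to 13.4 CPM (median 6.28) in J (log2 0.74, adjusted p = 0.0648) and was no longer called without J calf 85 (0.69, adjusted p = 0.112). TNFSF13B, which codes for BAFF, differed by -0.22 and was not called. The single interferon gene with an identifier was IFNB1, an antiviral type I interferon, which was low in both breeds but higher in J, at 0.588 to 2.67 CPM (median 1.25) in H-F and 1.94 to 7.25 CPM (median 3.21) in J (log2 fold change 1.5, SE 0.29, adjusted p = 0.012). J calf 85 had the highest value, and without it the difference was 1.3, adjusted p = 0.0202.

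Of 10 genes of cytotoxic lymphocytes and NK cells tested, 6 were DEG and all 6 were decreased in J, and all 10 log2 differences were below 0, with a median of -0.71. When J calf 85 was left out, alone or with H-F calf 25, 8 were decreased. That calf was the highest J calf for 4 of the 10 genes, KLRC1 and GZMB among them, and lay more than 2-fold above the mean of the other J calves for 3. HOPX, a transcriptional regulator of effector lymphocytes, was at 37 to 59.7 CPM (median 45.2) in H-F and 23.3 to 33 CPM (median 27.7) in J (log2 fold change -0.75, SE 0.11, adjusted p = 0.00276), with every J calf below every H-F calf. S1PR5, a receptor for the exit of NK cells from marrow and lymph nodes, was at 12.2 to 22 CPM (median 16.8) in H-F and 6.51 to 13.7 CPM (median 9.21) in J (log2 -0.76, adjusted p = 0.0133). The granzymes, serine proteases of killing granules, were not alike: GZMM (log2 -0.86, adjusted p = 0.0493) and GZMA (log2 -0.68, adjusted p = 0.0179) were called, while GZMB, at 11.7 to 28 CPM (median 20.4) in H-F and 6.84 to 35.6 CPM (median 12.8) in J, was not (log2 -0.27, adjusted p = 0.59). NCR1, an activating NK receptor, was at 8.51 to 17.8 CPM (median 10.7) in H-F and 4.34 to 11.6 CPM (median 7.57) in J (log2 -0.62, adjusted p = 0.0486). KLRC1, an NK lectin receptor chain, had log2 -0.82, adjusted p = 0.137 with all calves and -1.20, adjusted p = 0.0245 without J calf 85, which stood at 8.35 CPM against a J median of 2.64. FCGR3A, the low affinity receptor for immunoglobulin G on NK cells and monocytes, differed by -0.40 and was not called.

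All 14 B cell genes with an identifier had log2 differences above 0, with a median of 0.52, yet 4 passed the fold threshold, and 2 without J calf 85 (4 without both calves). The number called also moved with calves that did not stand apart, to 7 on leaving out either H-F calf 56 or J calf 6 and to 2 for either H-F calf 32 or J calf 9. BACH2, a repressor that holds B and T cells in a resting state, was at 7.72 to 30.0 CPM (median 18.4) in H-F and 27.5 to 50.3 CPM (median 36.2) in J (log2 fold change 1.05, SE 0.20, adjusted p = 0.00991). H-F calf 25 was the lowest of all at 7.72 CPM, and without it and J calf 85 the difference was 0.88, adjusted p = 0.0116. BTLA, an inhibitory lymphocyte receptor, was at 12.8 to 27.8 CPM (median 18.1) in H-F and 19.1 to 49.1 CPM (median 34) in J (log2 0.87, adjusted p = 0.0207). The abundant surface markers MS4A1 and CD22 differed by 0.42 and 0.50, with adjusted p of 0.0787 and 0.0555 but less than 1.5-fold, as did CD79B (0.39) and the B cell transcription factors PAX5 (0.56) and EBF1 (0.57). Over this list H-F calf 25 and J calf 85 lay above the mean of their breed by medians of 0.29 and 0.31 on the log2 scale, though H-F calf 25 was also the lowest H-F calf for 3 of the 14 genes. Beyond the fits given above without J calf 85 and without both calves, their part in the result was not tested.

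Of 5 MHC genes in the list CIITA was increased, and BOLA and BOLA-NC were decreased. Only the 2 decreases were called without J calf 85, and without both calves BOLA-DOB was the increase in place of CIITA. All 5 were called when H-F calf 56 was left out, and only 1 when J calf 9 or J calf 13 was. DSB and JSP.1 are outside the list. BOLA (ENSBTAG00000002069, an MHC class I heavy chain) was the most abundant listed DEG, at 2214 to 2567 CPM (median 2411) in H-F and 593 to 1407 CPM (median 1004) in J. The means and SD were 2397 ± 112 CPM in H-F and 1045 ± 286 CPM in J (n = 8 each), and no J calf reached the lowest H-F calf (log2 fold change -1.20, SE 0.14, adjusted p = 0.000809). JSP.1, another class I gene, was higher in J, at 252 to 1127 CPM (median 569) in H-F and 1023 to 2187 CPM (median 1501) in J (log2 fold change 1.43, SE 0.26, adjusted p = 0.00741). It was named after its values were seen. BOLA-NC, a non-classical class I gene, was lower in J (log2 -0.62, adjusted p = 0.0887), a call lost in 13 of 25 settings. Of class II, DSB was at 1.11 to 2.22 CPM (median 1.82) in H-F and 2.35 to 8.17 CPM (median 5.16) in J (log2 1.54, adjusted p = 0.00276), with all J calves above all H-F calves, and CIITA, the activator of class II transcription, was at 228 to 261 CPM (median 246) in H-F and 223 to 569.9 CPM (median 338) in J (log2 0.61, adjusted p = 0.0331) but was lost without J calf 85 (0.50, adjusted p = 0.0508). BOLA-DOB and HLA-DOA, chains of a class II chaperone, differed by 0.57 and 0.52 and missed the fold threshold. These genes vary in sequence between animals and have near-identical copies, and only uniquely aligned reads with fewer than 2 mismatches were counted, so their levels are uncertain.

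Of 13 receptors and soluble factors for phagocytosis and complement tested, 7 were decreased and 1 was increased in J, counts that were the same without J calf 85 and without both calves. C5AR1, the receptor for the complement fragment C5a that draws neutrophils, was at 68.8 to 175 CPM (median 127) in H-F and 50.8 to 90.7 CPM (median 75.3) in J (log2 fold change -0.85, SE 0.19, adjusted p = 0.022). GPR77, the alternative C5a receptor, was decreased by a similar amount (log2 -0.78, adjusted p = 0.0309), whereas C3AR1, the receptor for C3a, was not called (log2 -0.62, adjusted p = 0.174). MSR1, a scavenger receptor of macrophages, was at 5.02 to 26.5 CPM (median 12.1) in H-F and 3.45 to 7.54 CPM (median 5.0) in J (log2 fold change -1.40, SE 0.30, adjusted p = 0.017). LTB4R, the receptor for the neutrophil attractant leukotriene B4, was at 3.05 to 4.87 CPM (median 3.79) in H-F and 1.09 to 3.08 CPM (median 1.94) in J (log2 -0.92, adjusted p = 0.0133). CLEC7A, which recognises fungal glucans, and CLEC12A, an inhibitory lectin of myeloid cells, were also decreased, with log2 differences of -0.81 and -0.69 (adjusted p = 0.0373 and 0.052). MERTK, a receptor for the uptake of dying cells, was the one increase, at 4.64 to 9.11 CPM (median 6.51) in H-F and 7.4 to 16.9 CPM (median 8.2) in J (log2 0.60, adjusted p = 0.0594).

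Of 5 neutrophil genes tested 4 were decreased in J, IL1R2 and CXCR2 among them. There were 2 without J calf 85 and without both calves, and also when any of H-F calves 20, 32 and 33 or J calf 57 was left out. VNN2, a pantetheinase on the neutrophil surface, was at 259 to 567.5 CPM (median 441) in H-F and 187 to 309 CPM (median 263) in J (log2 fold change -0.80, SE 0.15, adjusted p = 0.00983), and VNN1 lost its call without J calf 85 (log2 -0.87, adjusted p = 0.0626 with all calves and -0.81, adjusted p = 0.11 without). LCN2, a neutrophil granule protein, differed by 0.48 in the other direction and was not called. Of 5 monocyte and dendritic cell genes 3 were lower: MSR1, AIF1, a cytoskeletal protein of macrophages (log2 -0.61, adjusted p = 0.0227), and BATF3, a transcription factor of dendritic cells, which did not overlap between breeds (log2 -0.61, adjusted p = 0.00741). The differences of AIF1 and BATF3 without J calf 85 were -0.58 and -0.57, under the fold threshold, while FLT3 passed it, which gave 2 decreases, as without both calves. There was 1 when H-F calf 20 or J calf 60 was left out. Of 4 eosinophil, basophil and mast cell genes only SIGLEC8, an inhibitory receptor of eosinophils, was called (log2 -0.71, adjusted p = 0.0297), with KIT beside it without both calves. HRH4, the histamine H4 receptor, differed by -0.26, and J calf 85 was set apart above the other J calves at 31.1 CPM.

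Platelet and megakaryocyte genes gave 4 decreases and 1 increase among 11 tested (3 and 1 without J calf 85 and without both calves). Leaving out H-F calf 48 gave 3 DEG in all, leaving out H-F calf 56 gave 8 and leaving out J calf 6 gave 10, and they were 9 by the exact test and 8 by DESeq2 or with all 48 libraries, with or without the calf block. With all calves 10 of the 11 differences were below 0 with a list median of -0.75. Beside PF4, the decreases were in TREML1, a receptor of platelet granules (log2 -1.24, adjusted p = 0.0508), THBS1, the matrix protein thrombospondin 1 (log2 -1.09, adjusted p = 0.0893, lost in 15 of 25 settings), and GP6, the platelet collagen receptor (log2 -0.94, adjusted p = 0.0227). The increase was PDGFA, which many cell types other than platelets also express. VWF, GP9 and P2RY12 had differences of -0.75, -1.27 and -0.73 with adjusted p of 0.105 to 0.169, and were not called. The level of PF4 and of these other platelet genes differed several-fold within each breed, PF4 running from 60.8 to 282 CPM among J calves alone.

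Lipid mediators and lipid handling had 3 decreases among 6 tested genes, with all calves, without J calf 85 and without both. LTC4S, which makes leukotriene C4, was at 2.83 to 12.4 CPM (median 4.38) in H-F and 0.612 to 2.82 CPM (median 1.38) in J (log2 fold change -1.77, SE 0.33, adjusted p = 0.00983). The breeds did not overlap, but only just, with H-F calf 33 at 2.8254 CPM and J calf 6 at 2.8179 CPM. CLU, a secreted chaperone also held in platelets, was at 38.9 to 103 CPM (median 71.5) in H-F and 10.7 to 60.5 CPM (median 29.5) in J (log2 -1.27, adjusted p = 0.0179), and PPARG, a nuclear receptor for fatty acids, was at 4.03 to 9.25 CPM (median 6.59) in H-F and 2.72 to 5.55 CPM (median 4.16) in J (log2 -0.69, adjusted p = 0.0273). Of 6 extracellular matrix genes 1 was increased and 2 were decreased, 1 of the latter without J calf 85 and without both calves. TGM2, a protein crosslinking enzyme, was at 14.9 to 41.3 CPM (median 26.2) in H-F and 5.74 to 20.2 CPM (median 10.7) in J (log2 -1.23, adjusted p = 0.017) and FBLN2, fibulin 2, was higher in J (log2 0.94, adjusted p = 0.0368). By edgeR's quasi-likelihood test 0 of 4 collagen, laminin and integrin genes were DEG, with 2 at an unadjusted p under 0.05, COL15A1 and ITGB5, and limma-voom called ITGB5. There was 1 DEG on leaving out any of H-F calves 20, 32 and 56 or of J calves 6 and 60. All 48 libraries with limma-voom and the calf block also gave 1, and leaving out both calves gave 2. J calf 85 was the highest J calf for ITGB5 and LAMA4, and without it both were called, at -0.76, adjusted p = 0.0176 and -0.67, adjusted p = 0.0787. Genes known from endothelium gave 2 decreases, CALCRL (log2 -0.68, adjusted p = 0.0171) and PLXND1 (log2 -0.71, adjusted p = 0.0526), and 2 increases, JAM2 and PROX1 (log2 0.96, adjusted p = 0.0287), among 5 tested, counts that were the same without J calf 85 and without both. Beside UROS, the erythroid gene XK was lower (log2 -0.72, adjusted p = 0.0821), and it lost its call without J calf 85, any of H-F calves 20, 32, 48 and 49 or any of J calves 7, 57 and 77.

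Of 15 interferon-stimulated genes tested 2 were DEG, IFITM3 lower in J (log2 -0.62, adjusted p = 0.0954) and GBP4 higher (log2 0.72, adjusted p = 0.0992), and each lost its call in 14 or 15 of the 25 settings. IDO1 was the only DEG without J calf 85, lower in J (-0.64, adjusted p = 0.0415), and GBP4 the only one without both calves. There were 4 by the exact test, and 4 when H-F calf 27 was left out. Leaving out any of H-F calves 25 and 33 or of J calves 13 and 60 gave 1, and leaving out any of H-F calves 20, 32, 48 and 49 or of J calves 7, 9, 57 and 77 gave 0. The other 13 did not pass. ISG15, a ubiquitin-like modifier, was at 31.3 to 266 CPM (median 84) in H-F and 16.8 to 199 CPM (median 63.3) in J (log2 -0.56, adjusted p = 0.461). OAS2, a sensor of double-stranded RNA, was at 16.2 to 132 CPM (median 36.5) in H-F and 11.2 to 106 CPM (median 28.7) in J (log2 -0.31, adjusted p = 0.724). Over the 15 genes H-F calf 25 lay above the other H-F calves by a median of 0.57 on the log2 scale, and J calf 85 lay below the other J calves by a median of -0.77 and was the lowest J calf for 8 of them. Without both calves the difference of ISG15 was -0.11, adjusted p = 0.90, and that of OAS2 was -0.03, adjusted p = 0.981. IFI27 differed by 1.39 in the direction of higher in J but was not called (adjusted p = 0.161).

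Of 7 immediate early and heat shock genes 3 were lower in J (2 without J calf 85 and without both), namely CDKN1A, an inhibitor of cell division (log2 -0.81, adjusted p = 0.0206), EGR2 (log2 -0.80, adjusted p = 0.0191) and the phosphatase DUSP2 (log2 -0.63, adjusted p = 0.0212), whereas FOS, FOSB and ATF3 had differences of -0.32, -0.26 and -0.41 and were not called. Among genes tied to stress hormones, ADRB1, the beta-1 adrenergic receptor, was near the expression limit at 0.929 to 2.45 CPM (median 1.72) in H-F and 0.653 to 1.55 CPM (median 1.05) in J (log2 -0.74, adjusted p = 0.0701), and lost its call on leaving out any of H-F calves 32 and 33 or of J calves 7, 9, 57 and 77. The T cell, gamma delta T cell, ribosomal protein and mitochondrially encoded lists had no member with an identifier, and haemoglobin genes could not be identified either, so these were not analysed here. Among the listed markers, MS4A1 and CD22 of B cells and PF4 and PPBP of platelets were above 4 CPM in all 16 libraries. So were NCR1 and GZMA of NK cells and CXCR2 of neutrophils. Other listed markers fell below 4 CPM in some libraries. Examples are KLRC1 at 1.40 CPM in J calf 57, IL1R2 at 0.826 CPM in J calf 85 and TREML1 at 1.27 CPM in J calf 9.

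**Figure D4:**
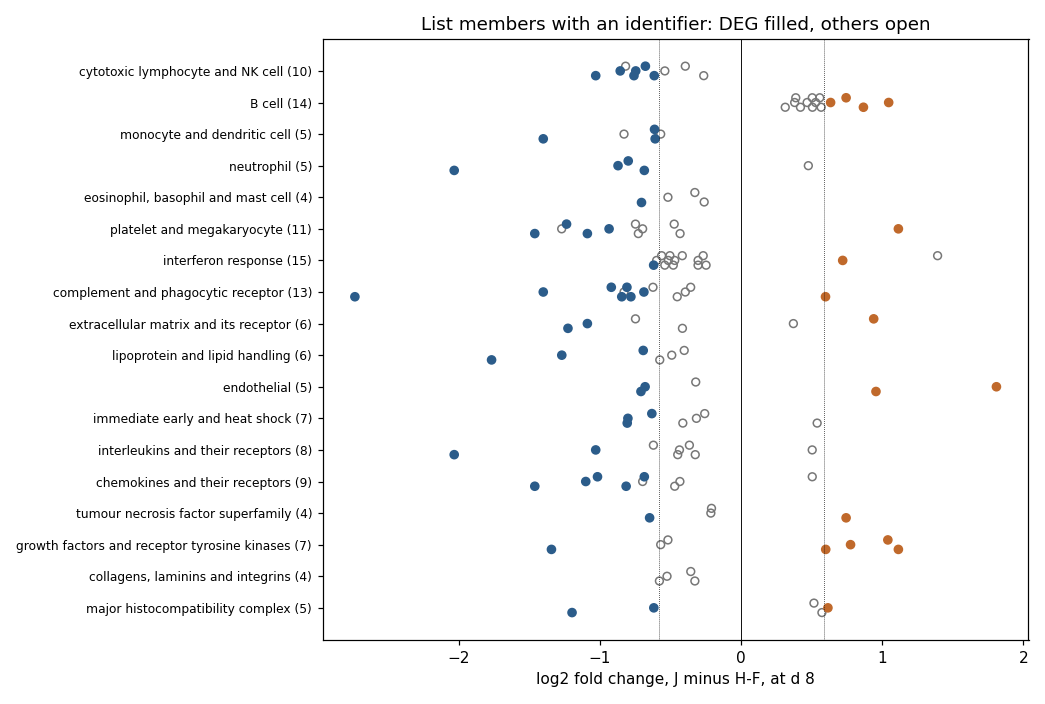
Log2 fold change of J over H-F at d 8 for each list member with an identifier (number tested in brackets), DEG filled in orange (higher in J) or blue (lower in J) and other genes open; dotted lines mark 1.5-fold. All 14 B cell genes lie right of 0 and all 10 cytotoxic and NK cell genes left of it, but only 4 and 6 are DEG.

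Whether the d 8 difference was itself different from the earlier days was tested as the interaction of breed and day over 48 libraries, with d 8 against the mean of d -14 and d 1. By edgeR's quasi-likelihood test without a calf term 0 of 12717 genes passed (0%), with 256 at an unadjusted p under 0.05. That fit took the 3 libraries of a calf as independent. Lasting differences between calves therefore counted as noise, and changes within calves could be missed. With calf as a block none passed either, with 1188 at an unadjusted p under 0.05 and a smallest adjusted p of 0.470, and limma-voom with the calf block gave 0 with 1347. At d -14 and d 1 the same comparison gave 550 DEG each (4.48% and 4.46% of genes). The calves were the same on all 3 days, so these are not independent. Of the 407 DEG at d 8, 220 were also DEG on both earlier days and 79 on neither, and 390 of the 393 tested on every day had the same sign throughout. The share of all genes with the same sign is not given here, so the 390 are not read as a trait of the DEG.

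Values for single genes differed in how they lay on the 3 days. Those of BOLA and PRSS2 were alike on the 3 days: -1.20 at d -14, -1.16 at d 1 and -1.20 at d 8 for BOLA, and -5.13 at d -14, -5.33 at d 1 and -5.18 at d 8 for PRSS2. IL1R2 had -1.39 at d -14, -1.04 at d 1 and -2.03 at d 8. LTC4S had -0.71 at d -14, -1.20 at d 1 and -1.77 at d 8, and UROS had -0.50 at d -14, -0.65 at d 1 and -0.88 at d 8. These 3 were larger in size at d 8, but the interaction with the calf block passed for none of them (adjusted p = 0.470 for IL1R2 and 0.525 for LTC4S and UROS). CALCRL had -0.96 at d -14, -1.05 at d 1 and -0.68 at d 8, a smaller difference at d 8, which did not pass either (adjusted p = 0.525). MERTK had -0.23 at d -14, 0.15 at d 1 and 0.60 at d 8, with the interaction at adjusted p = 0.525. The interferon-stimulated ISG15 and OAS2, not DEG at d 8, were DEG at d -14 by the quasi-likelihood test. ISG15 had -1.11 at d -14 (adjusted p = 0.0281), -0.15 at d 1 and -0.56 at d 8. OAS2 had -1.21 at d -14 (adjusted p = 0.0472), -0.05 at d 1 and -0.31 at d 8. GBP4 lay otherwise, at 0.53, 0.75 and 0.72, and the interaction passed for none of them.

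**Figure D5:**
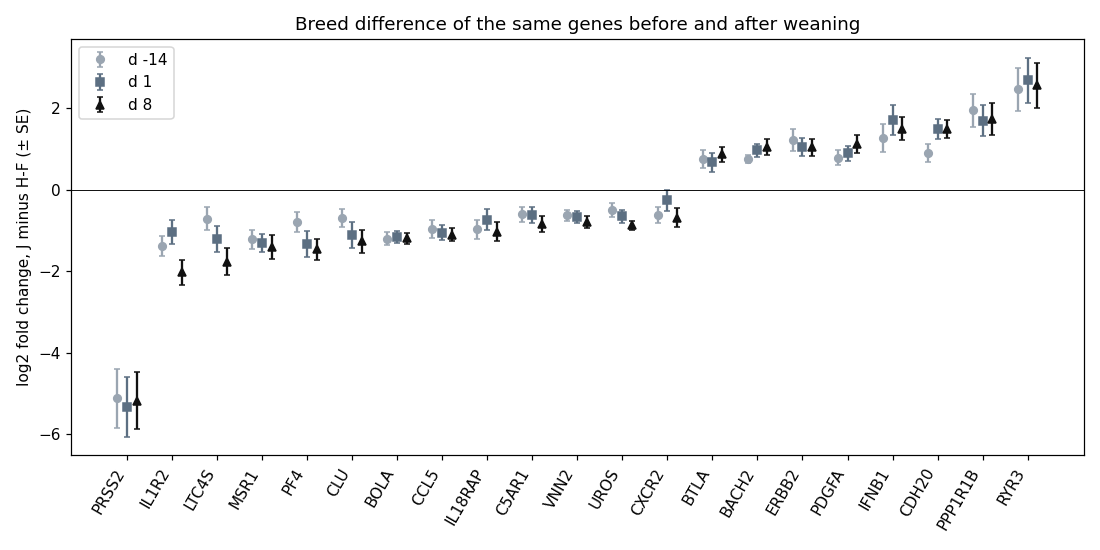
Log2 fold change of J over H-F with its SE for 21 genes, with circles for d -14, squares for d 1 and triangles for d 8, each from the 16 libraries of that day. In this plot the symbols of a gene lie on the same side of 0 on all 3 days, and no gene passed the test of a change in the breed difference.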

How the data were processed

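Blood was drawn into RNA-stabilising tubes, and mRNA libraries were made with a TruSeq v2 kit. Per the labels and the methods, the authors assessed reads with FastQC 0.10.0, aligned them to UMD3.1 with STAR, discarded reads that mapped to several places or had 2 or more mismatches, and tallied the rest on Ensembl genes using HTSeq-count, so reads of alleles far from the reference are not counted. The deposited values are whole-number read counts for 24616 genes and 92 spike-in sequences, with no normalization. Neither a strand setting nor a STAR or HTSeq-count version is given in the sources used here. Each of the 48 columns carries the calf number and day of a single label, and 0 columns were left unmatched.

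The 16 libraries of d 8 were fitted in edgeR 4.0.16 (R 4.3.3) with TMM factors and 2 group means, after a filter that kept the 12325 genes over 1 CPM in 8 or more libraries. P-values were Benjamini-Hochberg adjusted over all of them. A DEG needed an adjusted p under 0.1 and 1.5-fold, as in the study, which however left out 1 J calf and used an exact test. CPM uses TMM-normalised totals and log2 CPM a prior count of 2. Calf numbers in the labels pair the days: log2 CPM deviations of a calf correlated at 0.406 to 0.900 with its own other days, and those of different calves at -0.617 to 0.402. The biological coefficient of variation over 48 libraries was 0.197, and 0.106 with the calf block.

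In simulated data for d 8 (12325 genes, 200 changed 2-fold) the test recovered 93% with 7 false calls. These simulated counts held no calf set apart from its breed. Smaller changes were not simulated, although only 112 of the 407 DEG exceeded 2-fold. Alternatives were DESeq2 1.42.0, limma-voom with limma 3.58.1, edgeR's exact test, RLE factors, other filters and thresholds, all 48 libraries, and each calf left out. Tables were made in Python 3.11.15 with pandas 2.3.3, scipy 1.17.1 and numpy 2.4.6, and plots with matplotlib 3.10.9. At these totals (28398386 to 37763851 counts) 1 CPM stands for 28.4 to 37.8 counts, so levels far below it rest on very few.

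Symbols came from the names the study's gene tables pair with identifiers: 700 of 800 identifiers had one, which covered 615 genes tested and 319 of the 407 DEG. Named genes were the DEG with the 10 largest increases and decreases at a mean of at least 1 CPM, the 5 smallest p in each direction, up to 4 DEG of each list (or the 2 most abundant members where fewer than 2 were DEG), and all DEG among cytokines, growth factors and their receptors. Other genes, such as ISG15, OAS2 and members of a list that were not DEG, were named after their values were seen. The members and lists were chosen with earlier results of these data known.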

Additional observations from a re-analysis of the deposited data

Results flagged for a closer look

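For each named gene the 8 calves of a breed were searched for 1 calf whose gap to its neighbour exceeded 0.526 of the breed's range on the log2 scale, which chance gives in about 1 in 20 groups. This held in 10 of 152 groups, and J calf 85 was the calf in 4 of them. It was low for EXTL1 (0.177 CPM) and ADGRA3 (0.737 CPM), both DEG higher in J, and high for ITGB5 (8.85 CPM) and HRH4 (31.1 CPM), which were not DEG. J calf 57 was low for MET (6.76 CPM) and high for SLC29A4 (1.96 CPM), and J calf 60 was high for PTX3 (2.24 CPM). Among H-F calves, calf 33 was low for SLC29A4 (0.0911 CPM), calf 27 high for ADGRA3 (3.72 CPM) and calf 48 low for DSB (1.11 CPM). J calf 6 was set apart in the share of counts taken by the 10 highest genes, at 4.50%. H-F calf 25, which was set apart in the most genes of the whole table, was not the calf in any of these groups.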

How the results depend on the processing

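The 407 DEG became 1461 with no fold-change threshold and 255 at an adjusted p under 0.05, since these change the threshold itself. Other settings gave 372 (limma-voom) to 549 (mean count of at least 10), with 37.1 to 51.6% of DEG higher in J across all settings. Leaving out 1 calf gave 281 (without H-F calf 32) to 542 (without J calf 6) DEG, and all 48 libraries with limma-voom and the calf as a replicate block gave 533, of which 365 were among the 407. The share higher in J fell from 44.7% to 37.9% without J calf 85 and to 37.1% without J calf 9, and was 51.6% without J calf 60. Of the 407, 197 were called in every one of the 25 settings in which the expression filter kept them. No named gene changed sign in any of these. Without J calf 85, 14 of the 76 named genes lost their call and 2 gained one, as many lost theirs without H-F calf 32, and the calf block changed 4 calls. The spike-in difference stayed at -0.0264 to -0.00303 percentage points, with an exact permutation p of at least 0.293 whichever calf was left out. The interaction gave 0 genes in every fit, including the replicate block with and without J calf 85. Spike-in shares against totals without haemoglobin were not run, because haemoglobin genes could not be identified. Genes near 1 CPM are the least precise. The setting without both calves was added after the data were seen.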

Other observations

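Several DEG lie beside each other on the chromosomes. In RefSeq's gene order (assembly ARS-UCD2.0, matched by symbol), 303 DEG could be placed, and 106 of them lay within 10 coding genes of another, in 46 runs. These runs were looked for after the values were seen and carry no test. How many of 303 genes taken at random would lie as close was not worked out, so the 106 are not read as clustering. The longest had 6 DEG within 14 coding genes, all higher in J: PPP1R1B (log2 1.73), the receptor kinase ERBB2 (1.04), its adaptor GRB7 (1.06), the pore-forming gasdermins GSDMB (0.87) and GSDMA (0.78), and LRRC3C (0.66). GRB7 was at 6.25 to 12.2 CPM (median 7.66) in H-F and 9.1 to 34.2 CPM (median 16.8) in J, and GSDMB at 8.54 to 12.6 CPM (median 11.3) in H-F and 11.6 to 40.8 CPM (median 15.7) in J. Without J calf 85, GSDMA (0.69, adjusted p = 0.122) and LRRC3C (0.57, adjusted p = 0.0995, under the fold threshold) were no longer called. A second run held 4 ribonuclease genes within 9 coding genes, all lower in J: BRN (-2.29), the antimicrobial RNASE6 (-0.69), RNASE4 (-0.68) and ANG, angiogenin (-0.75). RNASE6, the most abundant of them, was at 166 to 347 CPM (median 258) in H-F and 113 to 217 CPM (median 159) in J. The lectin receptors CLEC7A, CLEC1A and CLEC12A formed a run of 3, all lower in J, and the free fatty acid receptors FFAR1 (log2 1.14, adjusted p = 0.0196) and FFAR3 (log2 0.95, adjusted p = 0.054) are neighbours that were both higher in J, FFAR3 losing its call without J calf 85 (0.73, adjusted p = 0.104). Direction was not always shared, since 27 of the 46 runs had DEG of 1 direction. Only 10 runs held 3 or more DEG, and how many short runs would share a direction by chance was not worked out.

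FCN2, a ficolin that starts the lectin pathway of complement, was among the most abundant DEG, at 669.5 to 1541 CPM (median 850.3) in H-F and 251 to 723 CPM (median 460.4) in J (log2 fold change -1.04, SE 0.26, adjusted p = 0.0327). It belongs to none of the named sets and was chosen after its values were seen. Among DEG without a symbol were some of the largest increases. ENSBTAG00000038652 had a log2 difference of 3.50 (adjusted p = 0.0373), but J calf 6 was at 416 CPM while the other 7 J calves were at 5.5 to 14.1 CPM and H-F calves at 2.18 to 8.36 CPM, and limma-voom did not call it (1.63, adjusted p = 0.198). ENSBTAG00000039041 was at 11.2 to 32.6 CPM (median 13.1) in H-F and 30.5 to 95 CPM (median 54.6) in J (log2 fold change 1.88, SE 0.26, adjusted p = 0.00276), with 7 of 8 J calves above the highest H-F calf.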
